A study of Mus musculus with 21 samples.

Results

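Kv2 channels are tetrameric voltage-gated potassium channels that carry much of the delayed rectifier current of brain neurons. The electrically silent Kv subunits form no working potassium channel by themselves. They assemble with Kv2 subunits and change where the tetramer goes, the voltages at which it opens and closes, and how fast it inactivates. The 9 genes described here are Kcnb2, which encodes the conducting subunit Kv2.2, and 8 genes of silent subunits, namely Kcnf1 (Kv5.1), Kcng1 (Kv6.1), Kcng2 (Kv6.2), Kcng4 (Kv6.4), Kcns1 (Kv9.1), Kcns2 (Kv9.2), Kcns3 (Kv9.3) and Kcnv1 (Kv8.1). They were picked by name from a table of 16318 genes, and all 9 were found in it. The set was selected on the measured difference between treatments, because Kcng1 and Kcnf1 had large rises among channel genes in these same mice. The differences between treatments are therefore given for these genes as sizes with errors, with no p-value for any of them. Where the number of them that the fit called is printed, it stands only beside the share over all genes and supports nothing.

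The RNA came from whole brains of 21 SAMP8 mice, a senescence-accelerated strain. Of these, 9 mice (3 female, 6 male) had received HsTX1[R14A], a peptide that blocks the potassium channel Kv1.3, under the skin at 1 mg/kg on alternate days for 8 weeks, starting at 4 months of age. The other 12 mice (6 female, 6 male) had received phosphate-buffered saline (PBS). All mice were SAMP8 and had reached 6 months when dosing ended, and all were perfused with cold PBS before the brain was taken, and each library came from 1 mouse. A difference in a whole brain cannot be assigned to a cell type, and fewer cells of a type and less RNA per cell cannot be told apart.

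Library totals ran from 14917174 to 47613792 estimated counts. Levels are given as CPM, the counts of a gene scaled to a common library size, after TMM scaling for library composition. The lowest count of any of the 9 genes in any mouse was 33 (Kcng4), so all passed the filter on low counts. All 35 marker genes of neurons, glia and endothelium were detected in every mouse. Xist exceeded Ddx3y in the 9 libraries labeled female and in none of the 12 labeled male. The libraries differed in a length slope, the change in log2 CPM relative to the mean of all mice for each doubling of transcript length. In PBS mice it averaged -0.08 ± 0.16 (SD, n = 12). In HsTX1[R14A] mice it averaged 0.10 ± 0.12 (SD, n = 9). The libraries also carried 2 forms of name in the table, of which the first was carried by 10 PBS and 5 treated mice and the second by 2 and 4. What the name form stands for is not given in the sources used here.

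What separates a conducting Kv2 subunit from a silent subunit is partly visible in the gene sequence. In the conducting Kv2 channels the last transmembrane helix holds a bend made by a proline, any residue and a second proline, and silent subunits are known to lack the second proline. The coding stretch from the selectivity filter to this bend was read for each gene from its longest transcript in GENCODE (mouse genome GRCm38), and 96 bases are shown for 8 of the genes because they carry this difference. Each runs 5′ to 3′ on the coding strand and lies in the last coding exon. The capitals at the start are the codons for glycine, tyrosine and glycine of the filter, and the capitals at the end are the 3 codons of the bend.
Kcnb2 (Kv2.2), chr1:15710052-15710147, plus strand: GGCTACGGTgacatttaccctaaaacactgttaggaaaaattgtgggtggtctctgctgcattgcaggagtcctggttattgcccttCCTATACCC
Kcnf1 (Kv5.1), chr12:17174974-17175069, minus strand: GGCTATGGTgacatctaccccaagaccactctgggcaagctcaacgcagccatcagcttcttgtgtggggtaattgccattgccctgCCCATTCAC
Kcng1 (Kv6.1), chr2:168262554-168262649, minus strand: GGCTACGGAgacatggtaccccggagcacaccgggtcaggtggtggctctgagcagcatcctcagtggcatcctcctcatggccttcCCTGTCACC
Kcng4 (Kv6.4), chr8:119625823-119625918, minus strand: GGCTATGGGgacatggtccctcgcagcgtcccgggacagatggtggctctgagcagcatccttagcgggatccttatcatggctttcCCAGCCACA
Kcns1 (Kv9.1), chr2:164164767-164164862, minus strand: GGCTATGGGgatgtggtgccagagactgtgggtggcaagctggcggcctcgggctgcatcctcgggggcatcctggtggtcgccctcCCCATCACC
Kcns2 (Kv9.2), chr15:34839618-34839713, plus strand: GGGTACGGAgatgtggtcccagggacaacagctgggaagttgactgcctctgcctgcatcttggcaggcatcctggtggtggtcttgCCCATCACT
Kcns3 (Kv9.3), chr12:11091488-11091583, minus strand: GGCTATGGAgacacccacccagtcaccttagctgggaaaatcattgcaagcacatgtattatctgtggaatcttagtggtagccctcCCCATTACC
Kcnv1 (Kv8.1), chr15:45109202-45109297, minus strand: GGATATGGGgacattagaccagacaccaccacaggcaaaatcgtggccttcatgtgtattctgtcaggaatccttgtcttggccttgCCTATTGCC

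Only Kcnb2 among the 9 genes coded proline, isoleucine and proline at the bend. In the other 8 the third codon read as another residue: histidine in Kcnf1, alanine in Kcnv1, and threonine in the Kcng and Kcns genes. Over the 96 bases, identity between 2 genes ranged from 51.0% (Kcnb2 and Kcng1) to 88.5% (Kcng1 and Kcng2), with a median of 58.3% over the 36 pairs. Kcng2 and Kcng4 shared 83.3% of the bases and Kcng1 and Kcng4 80.2%. Among the Kcns genes, Kcns1 and Kcns2 shared 74.0%. The stretch was found by searching for a filter with glycine at both ends. Its bend was found as a proline followed by isoleucine, valine or alanine. Those residues were therefore fixed in advance. Between the glycines each gene coded tyrosine, and at the third codon of the bend the silent subunit genes differed from Kcnb2.

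Levels of different genes were compared per kb of the longest transcript, in the 12 PBS mice (the plot of levels per kb). Kcnv1, whose subunit Kv8.1 is known to suppress Kv2 currents when present in excess, had the highest level, 20.4 ± 3.38 CPM per kb (SD, n = 12). Kcnf1 followed at 9.66 ± 3.45 CPM per kb. Kcns2, Kcng1 and Kcns1 formed a middle group at 4.27 ± 0.70, 4.17 ± 1.43 and 3.73 ± 1.03 CPM per kb. Kcnb2 stood at 1.60 ± 0.34, Kcng4 at 1.54 ± 0.65, Kcns3 at 1.51 ± 0.31 and Kcng2 at 1.21 ± 0.30 CPM per kb.

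Neighbors in this order were compared within mice by an exact paired permutation test (two-sided, 12 mice, adjusted over 8 pairs by Benjamini and Hochberg's method). Kcnv1 exceeded Kcnf1 by 1.15 ± 0.63 (SD) on the log2 scale per kb, in 12 of 12 mice (exact test, adjusted p = 0.00130). Kcnf1 exceeded Kcns2 by 1.11 ± 0.43, again in 12 of 12 mice (exact test, adjusted p = 0.00130). Kcns1 exceeded Kcnb2 by 1.20 ± 0.33 in 12 of 12 mice (exact test, adjusted p = 0.00130). The order therefore held 3 steps, with Kcnv1 above Kcnf1, Kcnf1 above the middle group, and the last gene of the middle group above Kcnb2.

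Within the groups the neighbors did not differ beyond their spread. Kcns2 lay above Kcng1 by a mean of 0.10 on the log2 scale in 7 of 12 mice (exact test, adjusted p = 0.598), and Kcng1 above Kcns1 by 0.13 in 10 of 12 (exact test, adjusted p = 0.546). Kcnb2 and Kcng4 differed by 0.16 (exact test, adjusted p = 0.546) and Kcng4 and Kcns3 by -0.09 (exact test, adjusted p = 0.627). Kcns3 lay above Kcng2 by 0.34 in 9 of 12 mice (exact test, adjusted p = 0.0762). The places of Kcng1 and Kcng2 depended on the transcript length used: with the median length of the annotated coding transcripts in place of the longest, Kcns3 lay below Kcng2 (difference -1.52 on the log2 scale), and Kcns2 lay below Kcng1 (difference -0.65).

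**Figure D1:**
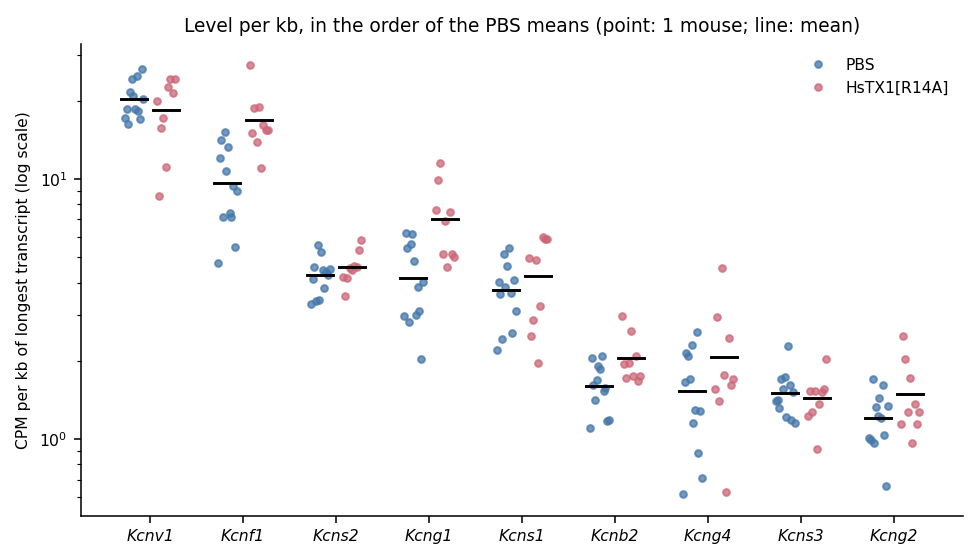
CPM per kb of the longest transcript (log axis) for the 9 genes, in the order of their PBS means. Each point is 1 mouse, PBS in blue (n = 12) and HsTX1[R14A] in red (n = 9), and each line is a mean; Kcnv1 has the highest PBS mean (20.4) and Kcng2 the lowest (1.21).

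Per kb of the longest transcript, the mRNAs of the silent subunits together far exceeded the mRNA of Kcnb2. Summed in this way, the 8 silent subunit genes reached 29.7 ± 5.15 times the level of Kcnb2 in PBS mice (SD, n = 12). In the treated mice the ratio was 28.2 ± 5.79 (SD, n = 9). Other conducting Kv2 subunits are not part of this ratio. Its size rests on the length used, as the longest Kcnb2 transcript has 14845 bases and the median coding one 9404. With the median length Kcnb2 stood at 2.53 ± 0.53 CPM per kb, and the ratio was not computed. Before division by length, the 9 genes summed to a median of 226 CPM in PBS mice and Kcnb2 had a median of 23.8 CPM. Kcnv1 alone made up 42.8% ± 7.04 of the summed level of the 9 genes in PBS mice and 31.3% ± 8.53 in HsTX1[R14A] mice. The share of Kcnf1 was 19.7% ± 5.24 in PBS mice and 28.97% ± 6.03 in HsTX1[R14A] mice. Kcng1 took 8.60% ± 2.33 and 12.3% ± 4.63. The ratio of Kcnf1 to Kcnv1 per kb had a mean of 1.04 ± 0.48 in the treated mice against 0.49 ± 0.20 in PBS mice. Its median was 0.81 in the treated mice (range 0.49 to 1.73) and 0.48 in PBS mice (range 0.21 to 0.87). Kcnf1 was chosen on this contrast, so its nearness to Kcnv1 in treated mice is a description.

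Relative to PBS, 7 of the 9 genes had a positive and 2 a negative log2 fold change in treated mice (edgeR, sex in the model), while 48.6% of all 16303 genes tested were positive. Over the 9 genes the median log2 fold change was 0.32, and over all genes it was -0.01. The fit called 3 of the 9 genes at an adjusted p of at most 0.05, all higher, which is 33.3% of them. Over all genes it called 31.6%, with 15.5% higher and 16.1% lower in HsTX1[R14A] mice. The genes were chosen with this contrast known, so nothing is read from their count.

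Kcnf1 encodes Kv5.1, a silent subunit of cortical and hippocampal neurons, and lies in 1 exon at chr12:17172100-17176888 on the minus strand (GRCm38). In PBS females its level was 22.8 CPM at the lowest, 54.7 at the median and 72.8 at the highest, and in PBS males 26.3, 39.3 and 63.6. The HsTX1[R14A] females had 71.8, 90.3 and 131 CPM, and the males 53.0, 74.0 and 90.7 (lowest, median, highest). All 9 treated mice lay above the PBS median of 44.2 CPM, and 6 of the 9 lay above every PBS mouse. The groups still overlapped, since the lowest 3 treated mice lay below the highest PBS mouse. The mean rose from 46.2 ± 16.5 (SD, n = 12) to 81.0 ± 22.03 CPM (SD, n = 9), a log2 fold change of 0.86 ± 0.18 (SE) or 1.82-fold. It ranked 206 of 16303 genes by size of increase.

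Kcng1 encodes Kv6.1, which shifts the inactivation of Kv2 channels to more negative voltages, and lies at chr2:168260117-168281736 on the minus strand. In PBS females its level was 11.6 CPM at the lowest, 22.6 at the median and 25.4 at the highest, and in PBS males 8.30, 14.2 and 19.8. The HsTX1[R14A] females had 31.04, 40.5 and 47.0 CPM, and the males 18.8, 21.1 and 30.5 (lowest, median, highest). Within females the treated and PBS mice did not overlap, and within males they did. Kcng1 was chosen on this contrast, and how many of all genes separate so was not counted, so nothing is read from this gap. All 9 treated mice lay above the PBS median of 16.1 CPM and 5 of the 9 above every PBS mouse. The mean was 17.1 ± 5.87 CPM in PBS and 28.8 ± 9.78 CPM in treated mice. Its log2 fold change was 0.83 ± 0.16 (SE), or 1.77-fold, at rank 234.

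Kcnb2 encodes the conducting subunit itself, Kv2.2, and spans chr1:15287254-15723750 on the plus strand, with 3 small annotated genes inside it. PBS mice ranged from 16.5 to 30.9 CPM with a median of 23.8, and HsTX1[R14A] mice from 24.9 to 44.1 with a median of 28.9. Every treated mouse lay above the PBS median, but only 3 of the 9 lay above the highest PBS mouse. The log2 fold change was 0.37 ± 0.13 (SE), or 1.29-fold, smaller than that of Kcnf1 or Kcng1.

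**Figure D2:**
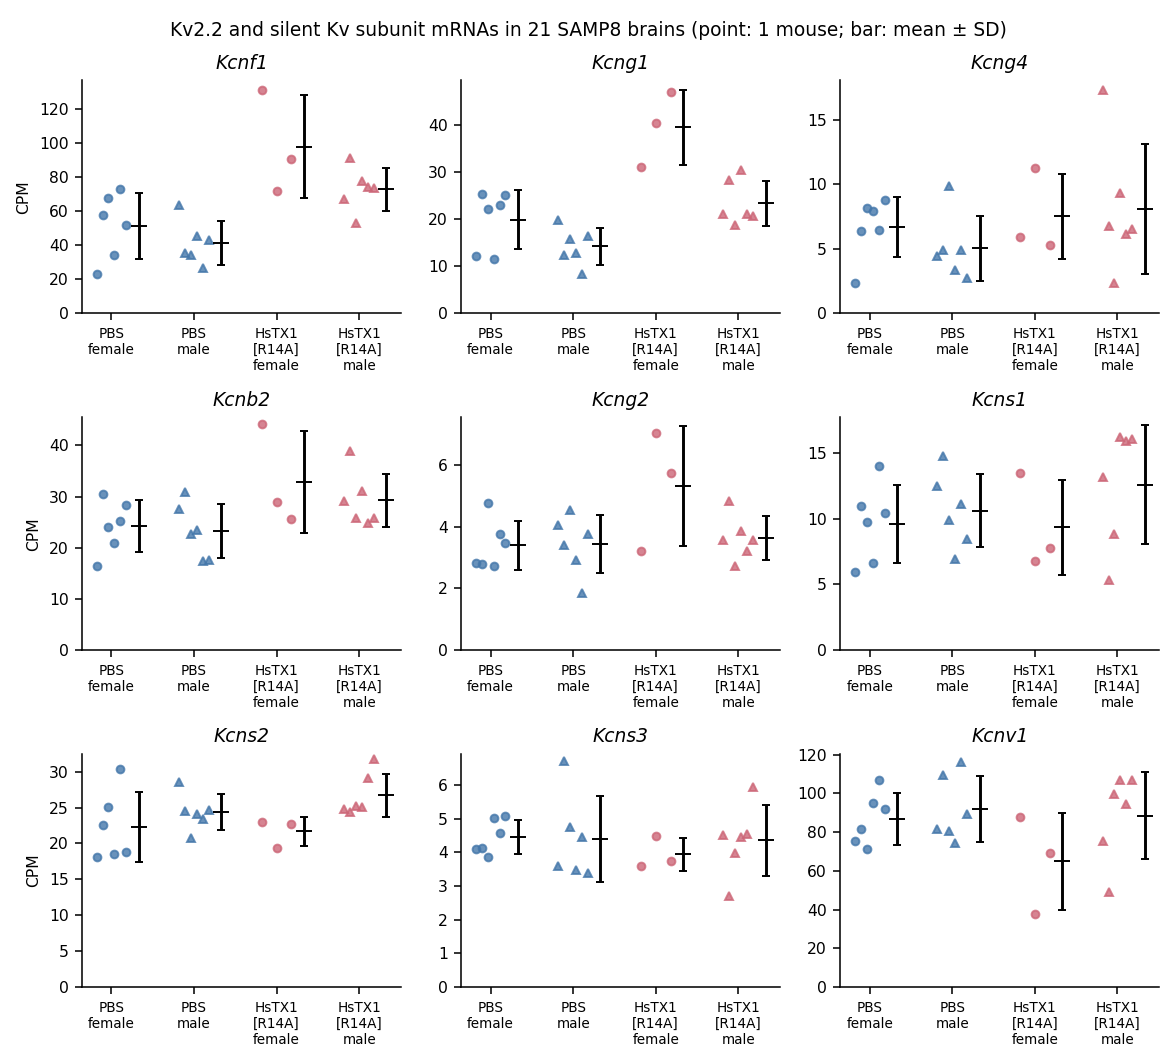
CPM (linear axis from 0) of the 9 genes in PBS females (n = 6), PBS males (n = 6), HsTX1[R14A] females (n = 3) and HsTX1[R14A] males (n = 6). Points are mice and black bars the mean ± SD. In the Kcng1 panel the treated females run from 31.04 to 47.0 CPM and the PBS females from 11.6 to 25.4 CPM. Kcng1 was chosen on this contrast, so nothing is read from this gap.

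The other Kcng genes were low and less uniform. Kcng4 encodes Kv6.4, a silent subunit used to mark fast motor neurons and alpha retinal ganglion cells, and lies at chr8:119623854-119635680. PBS mice ranged from 2.34 to 9.82 CPM with a median of 5.64, and HsTX1[R14A] mice from 2.38 to 17.3 with a median of 6.502. Only 2 of 9 treated mice lay above every PBS mouse, and the lowest mice of both treatments were almost equal. Its log2 fold change was 0.49 ± 0.30 (SE), the least precise of the 9. It was 0.25 without the HsTX1[R14A] male with the highest level (mouse 74) and 0.65 without the PBS male with the highest level (mouse 82).

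Kcng2 encodes Kv6.2, first described in heart, and lies on the minus strand of chromosome 18, with 3 further annotated genes overlapping it, 2 of them on the opposite strand. PBS mice ranged from 1.87 to 4.78 CPM and HsTX1[R14A] mice from 2.73 to 7.03, with medians of 3.44 and 3.58. Whether the counting used the strand is not certain from the sources used here, so reads of Kcng2 and its overlapping genes may not be told apart. The treated females had 3.21, 5.75 and 7.03 CPM, while the treated males (2.73 to 4.84) lay within or next to the range of PBS males (1.87 to 4.54). The log2 fold change was 0.32 ± 0.17 (SE), and 0.19 without the treated female with the highest level (mouse 71).

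The Kcns genes, whose Kv9 subunits slow the gating of Kv2 channels and reduce or raise their current depending on the subunit, lay near 0. Kcns1 lies at chr2:164163619-164171113. It ranged from 5.96 to 14.7 CPM in PBS mice and from 5.32 to 16.2 CPM in HsTX1[R14A] mice (log2 fold change 0.12 ± 0.20 SE). Its treated mice were split, with 3 of the 9 above every PBS mouse and 4 below the PBS median. The treated mice ranged from 5.32 to 13.2 CPM in the more common library name form (n = 5). In the other form they ranged from 13.5 to 16.2 CPM (n = 4). The PBS mice did not separate by name form. In the more common form they ran from 5.96 to 14.7 CPM (n = 10). In the other they lay within that range, at 12.52 and 13.98 CPM (n = 2). How many of all genes separate treated mice by name form was not counted, so nothing is read from this gap. With the name form in the model the log2 fold change of Kcns1 was -0.11, and leaving out 1 mouse moved it between 0.02 (without HsTX1[R14A] female 98) and 0.20 (without HsTX1[R14A] male 88). Kcns2, at chr15:34837355-34843407, was the least variable silent subunit gene, at 23.3 ± 3.84 CPM in PBS and 25.0 ± 3.58 in HsTX1[R14A] mice (log2 fold change 0.07 ± 0.09 SE). Kcns3, an mRNA known from parvalbumin interneurons of the cortex, lies at chr12:11090202-11151056 and overlaps 1 pseudogene on the opposite strand. Its level was 4.43 ± 0.92 CPM in PBS and 4.22 ± 0.89 CPM in HsTX1[R14A] mice (log2 fold change -0.08 ± 0.13 SE, and 0.0072 without PBS male 101), and no treated mouse lay above every PBS mouse.

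Kcnv1, at chr15:45106284-45114920, had the lowest log2 fold change of the 9, -0.20 ± 0.15 (SE). PBS mice ranged from 71.2 to 116 CPM with a median of 85.7. HsTX1[R14A] mice ranged more widely, from 38.0 to 107 CPM with a median of 87.7. The medians were close, and the lower mean in treated mice (80.7 ± 24.8 against 89.5 ± 14.8 CPM) came with 2 low mice, a female at 38.0 and a male at 48.9 CPM. Without that female (mouse 71) the log2 fold change was -0.10. Over the 9 treated mice its log2 CPM had r = -0.41 with the length slope. Treated mice ranged from 38.0 to 99.5 CPM in the more common name form (n = 5) and from 87.7 to 107 CPM in the other (n = 4). The part of the slope or of the name form in these values was not tested.

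Whether the treatment difference itself differed between females and males was tested with a treatment by sex term, which the choice of genes did not use. No gene was called among all tested (0%), and 270 genes had an unadjusted p under 0.05 (edgeR). None of the 9 genes passed. Kcnf1 had a log2 fold change of 0.93 ± 0.29 (SE) in females and 0.81 ± 0.24 in males. Kcng1 had 0.98 ± 0.25 and 0.72 ± 0.22. For Kcng1 the difference between the sexes was 0.27 on the log2 scale, with a 95% interval from -0.40 to 0.93 (edgeR, adjusted p = 1.00). The widest gaps were in Kcng2, with 0.65 ± 0.25 in females and 0.09 ± 0.21 in males (difference 0.56, interval -0.09 to 1.21), and in Kcng4, with 0.16 ± 0.46 and 0.70 ± 0.38 (difference -0.54, interval -1.72 to 0.64). With 3 treated females these intervals still allow differences as large as the changes themselves.

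**Figure D3:**
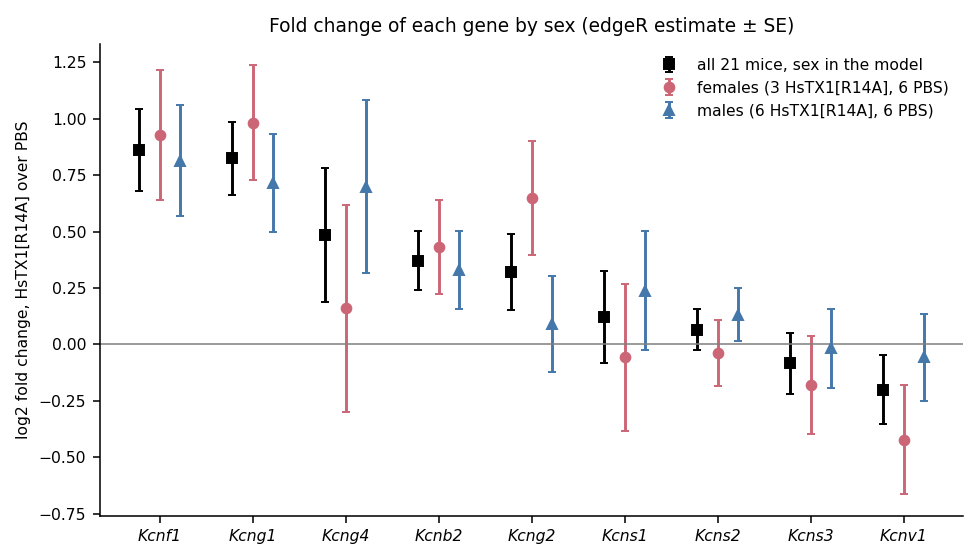
Log2 fold change, treated against PBS (edgeR estimate, bars are SE) for the 9 genes in all 21 mice, in females and in males. Kcnf1 has 0.93 in females and 0.81 in males and Kcng1 has 0.98 and 0.72, while Kcng2 and Kcng4 are uneven, with wide bars for Kcng4.

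The sexes themselves were compared across both treatments. None of the 9 genes was called for sex by edgeR, and 9 genes of all tested were (0.0552%), among them Xist, Ddx3y, Uty and Kdm5d. At an unadjusted p under 0.05 there were 1765 genes (10.8%). Kcng1 had the largest sex difference of the 9, with females higher by 0.60 ± 0.16 (SE) on the log2 scale (edgeR, unadjusted p = 0.00131, adjusted p = 0.397). Over both treatments, females ranged from 11.6 to 47.0 CPM with a median of 25.1, and males from 8.30 to 30.5 with a median of 19.3, so the pooled sexes overlapped widely. Among PBS mice, females had 11.6 to 25.4 CPM and males 8.30 to 19.8 CPM. Among treated mice, females had 31.04 to 47.0 CPM and males 18.8 to 30.5 CPM, and sex was not tested within them. Kcns2 was lower in females by -0.20 ± 0.09 (edgeR, unadjusted p = 0.0457, adjusted p = 0.446). For Kcnf1 the sex difference was 0.36 ± 0.18 (edgeR, adjusted p = 0.446), and for the other 6 genes it lay between -0.25 and 0.23.

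The level of some of the genes moved with the length slope of the library already among the 12 PBS mice, which share no treatment difference. These correlations are across mice, and both measures come from the same library. Kcnf1 had r = 0.90 (permutation test with 100000 resamples, two-sided, p = 7.0e-05, adjusted over 9 genes p = 0.00063). Spearman's rho was 0.88 (permutation p = 0.00032, adjusted p = 0.00288), r was 0.79 without the 2 mice farthest from the median slope, and it was 0.93 within the 10 mice of the more common name form. Kcng1 had r = 0.82 (permutation p = 0.00077, adjusted p = 0.00346) and rho = 0.80 (permutation p = 0.0029, adjusted p = 0.0130), with 0.78 without the 2 farthest mice and 0.80 within the name form. Among all genes tested, 20.7% had r above 0.8 and 16.97% below -0.8.

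Kcng2 had r = 0.70 (permutation p = 0.0112, adjusted p = 0.0337) and rho = 0.62 (permutation p = 0.0371, adjusted p = 0.111), and r fell to 0.47 without the 2 farthest mice, so its relation rests on them. Kcnb2 had r = 0.62 (permutation p = 0.0297, adjusted p = 0.0669), rho = 0.52 (permutation p = 0.0829, adjusted p = 0.164) and r = 0.15 without the 2 farthest mice. For Kcng4, Kcns1, Kcns2, Kcns3 and Kcnv1 the relation did not pass, with r from -0.33 in Kcnv1 to 0.54 in Kcng4. Kcns3 had r = -0.19 (permutation p = 0.546, adjusted p = 0.546) and Kcnv1 had r = -0.33 (permutation p = 0.292, adjusted p = 0.344).

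**Figure D4:**
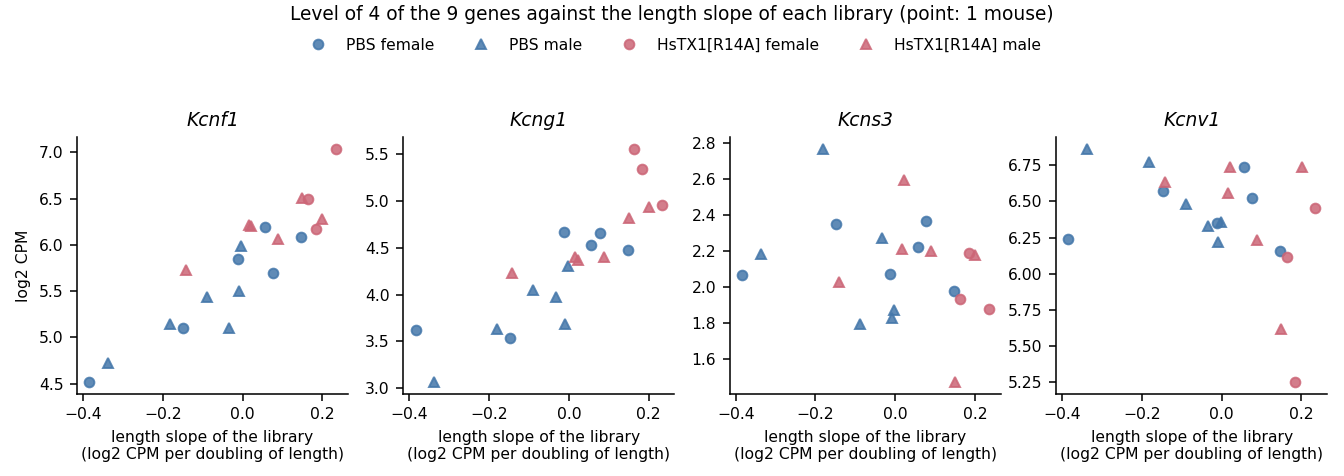
Log2 CPM of Kcnf1, Kcng1, Kcns3 and Kcnv1 against the length slope of each library (log2 CPM per doubling of transcript length). Points are mice, PBS in blue and HsTX1[R14A] in red, circles female and triangles male; Kcnf1 and Kcng1 climb with the slope among PBS mice (r = 0.90 and 0.82, n = 12), Kcns3 and Kcnv1 do not.

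Because the slopes of the HsTX1[R14A] mice were higher on average, the fold changes were also estimated with the length slope in the model. The log2 fold change of Kcnf1 was then 0.36 in place of 0.86, and that of Kcng1 0.41 in place of 0.83. Kcnb2 went from 0.37 to 0.11, while Kcng4 and Kcng2, at 0.49 and 0.32 before, came to -0.00032 and 0.0037. With this term edgeR called 0 genes of all tested, with 1865 at an unadjusted p under 0.05, and 0 of the 9. The part of the slope in the treatment differences was not tested.

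Within the 15 mice of the more common name form, Kcnf1 had a log2 fold change of 0.87 and Kcng1 of 0.97. In the remaining 6 mice, of the second form, the values were 0.48 and 0.34. In each form separately edgeR called 0 genes, with 5797 and 532 genes at an unadjusted p under 0.05. Kcng2, Kcns1, Kcns2, Kcns3 and Kcnv1 had opposite signs in the 2 forms, while Kcnf1, Kcng1, Kcng4 and Kcnb2 were positive in both. The genes were chosen on this contrast, so these signs say nothing of stability.

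**Figure D5:**
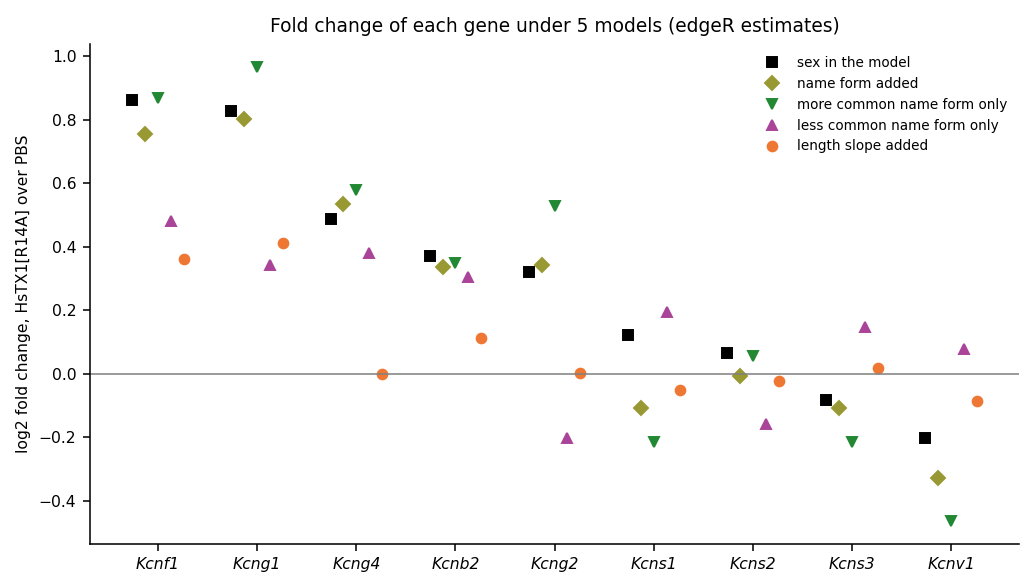
Log2 fold change, treated against PBS (edgeR estimates without error bars) for the 9 genes under 5 models. Kcnf1 runs from 0.36 to 0.87 and Kcng1 from 0.34 to 0.97, and with the length slope added the other 7 genes lie between -0.08 and 0.11. The genes were chosen on this contrast in these same mice, so the signs say nothing of stability.

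Among the PBS mice, Kcnf1 and Kcng1 also moved together. Their log2 CPM had r = 0.84 over 12 mice (permutation test with 100000 resamples, p = 0.00079, adjusted over 36 pairs p = 0.0284). Spearman's rho was 0.81 (permutation p = 0.00212, adjusted p = 0.0763), r was 0.81 without the 2 mice farthest from the median of Kcnf1, and 0.83 within the more common name form. After the length slope was removed from both genes by a linear fit, r was 0.42. This was the only pair of 36 with an adjusted p for r of at most 0.05, and r over all pairs had a median of 0.35 and a range from -0.44 (Kcng2 and Kcnv1) to 0.84.

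The genes outside this set whose levels were most like that of Kcng1 over the 12 PBS mice were Rnf214 (r = 0.93), Hif1an (r = 0.93) and Adgrl3 (r = 0.93), out of 14228 genes that had 10 or more counts in each mouse. For Kcnf1 they were Ndrg4, Lzts1 and C2cd2l, each with r = 0.99. These values are a description over 12 libraries that share the length slope, with which these 6 genes had r from 0.89 to 0.94. Of the genes compared, 1090 had r above 0.9 with Kcnf1 and 44 with Kcng1.

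The remaining voltage-gated potassium channel alpha subunit genes were read as a group of 27, chosen by gene name. Against PBS, all 27 had a positive log2 fold change in treated mice, with a median of 0.48, and 15 were called higher and 0 lower (edgeR), which is 55.6% against 15.5% of all genes called higher. Their summed level moved with the length slope of the library among the 12 PBS mice, at r = 0.95 (permutation test with 100000 resamples, p = 4.0e-05, adjusted over 9 lists p = 0.00018) and rho = 0.92 (permutation p = 8.0e-05, adjusted p = 0.00072). Leaving out the pair of mice with the most extreme slopes gave r = 0.86, and the 10 mice of the more common form gave r = 0.95. The part of the slope in the rise of these genes was not tested. Among those with the largest log2 fold changes was Kcnc1, a Kv3 channel gene of fast-spiking neurons, at 0.80 ± 0.22 (SE, edgeR adjusted p = 0.0186). Among the smallest were those of Kcna4 (0.15 ± 0.08) and Kcnh8 (0.03 ± 0.23), neither of them called. Kcna3, which encodes the target of the peptide, was called higher at 5.71 ± 1.51 CPM in HsTX1[R14A] mice against 4.10 ± 0.81 in PBS mice (log2 fold change 0.53 ± 0.14 SE, adjusted p = 0.0180).

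Of 13 listed genes of proteins that bind or modify Kv2 channels, 10 were tested. Of these 1 was called higher and 3 lower, which is 40.0% called in all against 31.6% of all genes, with a median log2 fold change of -0.19 against -0.01. Amigo1, the membrane protein that accompanies Kv2 channels in their clusters, rose by 0.48 ± 0.14 (SE, edgeR adjusted p = 0.0226), from 67.7 ± 17.3 to 93.0 ± 15.5 CPM. Vapa, an endoplasmic reticulum protein that binds Kv2 clusters at contacts with the plasma membrane, fell, with a log2 fold change of -0.17 ± 0.06 (adjusted p = 0.0468), while its relative Vapb had 0.02 ± 0.05 (adjusted p = 0.779). Of the listed genes of calcineurin, the phosphatase that disperses Kv2 clusters, 2 were called lower. These were a catalytic subunit, Ppp3ca (-0.30 ± 0.10, edgeR adjusted p = 0.0357), and a regulatory subunit, Ppp3r1 (-0.33 ± 0.11, edgeR adjusted p = 0.0281). A further listed catalytic subunit had -0.21 ± 0.09 and was not called (edgeR adjusted p = 0.0696). With the length slope in the model none of the calls among Kv genes or Kv2 partners remained, since edgeR called 0 genes in all.

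Markers of cell types were read beside these values, 5 genes for each type, where 15.5% of all genes were called higher and 16.1% lower, so that 1 called gene of 5 is near that share. Of the neuron markers 1 of 5 was called higher, of the excitatory neuron markers 0 of 5, and of the inhibitory neuron markers 1 of 5. The summed level of the excitatory markers ran from 893 to 3576 CPM in PBS mice and from 2154 to 4497 CPM in HsTX1[R14A] mice, and that of the inhibitory markers from 712 to 1232 and from 953 to 1333 CPM. The general neuron markers summed to between 4321 and 6706 CPM in PBS mice and between 4925 and 7422 CPM in HsTX1[R14A] mice. Of the astrocyte, oligodendrocyte and microglia markers 2 of 5 each were called lower, with sums of 827 to 1550, 3460 to 4965 and 230 to 311 CPM in PBS mice and 863 to 1274, 2502 to 3893 and 196 to 272 CPM in HsTX1[R14A] mice. Of the endothelium markers 1 of 5 was called higher, with sums of 33.2 to 82.7 and 44.3 to 92.5 CPM. The sum of the excitatory markers also moved with the length slope among PBS mice (r = 0.92, permutation p = 4.0e-05, adjusted over 9 lists p = 0.00018, rho = 0.86, permutation p = 0.00059, adjusted p = 0.00237, and r = 0.82 without the 2 farthest mice). Within the more common name form r was 0.92. The sum of the endothelium markers moved with the slope too (r = 0.87, permutation p = 0.00021, adjusted p = 0.00063). Its rho was 0.85 (permutation p = 0.00079, adjusted p = 0.00237). Without the 2 farthest mice its r was 0.73, and within that form it was 0.88. For the other cell types r ran from -0.47 (microglia) to 0.29 (general neuron markers), and none passed. No marker was at 0 in any mouse, and the part of cell type makeup in the differences of the 9 genes was not tested.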

How the data were processed

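Whole-brain RNA of 21 SAMP8 mice was sequenced by the authors, who processed the reads with nf-core/rnaseq 3.2 (STAR on GRCm38, Salmon) and deposited a table of 16318 genes with estimated counts, unscaled. The library kit is named differently in the labels and in the study's methods. Estimated counts were rounded. The deposited fold changes, p-values and FDR and 53 other per-sample columns were not used. Library totals ran from 14917174 to 47613792, and no pair of mice of 1 group differed by sampling noise alone (lowest mean chi-square per gene 7.58 over 48 pairs). Mice were grouped by labeled treatment and sex. Nothing in the labels pairs mice between treatments.

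After filterByExpr (16303 genes kept) and TMM scaling, edgeR 4.0.16 in R 4.3.3 was run (glmQLFit, glmQLFTest) with treatment and sex, or with their interaction, in the model and FDR at most 0.05. SE is the log2 fold change divided by the root of F, and 95% intervals are 1.96 SE to each side. Log2 CPM for correlations carried a prior count of 2. Exact paired tests used SciPy 1.17.1, and permutation tests of correlations were computed with numpy 2.4.6. Transcript lengths came from GENCODE, found for 16224 tested genes, and coding stretches from the longest open reading frame.

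The 9 genes, the gene lists and the alternatives were chosen with earlier results of these data known. Named beside the 9 are genes from the 3 of largest and the 3 of smallest fold change among the other Kv genes, called Kv2 partners with Amigo1, Vapa and Vapb, the 3 genes most like Kcng1 and Kcnf1, and Kcna3. Some genes that the rule or these families hold are not reported here. Alternatives were limma/voom (limma 3.58.1), DESeq2 1.42.0, RLE scaling, other filters, no sex term, the name form or length slope as covariate, each name form alone, PBS mice alone for sex, and each mouse left out. The procedures were tested on simulated data.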

Additional observations from a re-analysis of the deposited data

Results flagged for a closer look

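Kcng4 in 1 PBS male (mouse 82) stood apart from the other 5 males of its group, at 9.82 CPM against 2.70 to 4.93 CPM, a gap of 0.686 of the group's range (Dixon's critical value 0.625 for 6 mice). It was the only such value in 27 groups of 6 mice examined, where chance alone gives about 1 in 20. Without this mouse the log2 fold change of Kcng4 was 0.65 in place of 0.49, and over each mouse left out in turn it ran from 0.25 to 0.65.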

How the results depend on the processing

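The count of genes called for treatment (5144) was within 1.5 times under limma/voom, DESeq2, RLE scaling and both other filters. It was 1999 with the name form as covariate, 2984 without the sex term, and 0 in each name form alone or with the length slope as covariate; in each of those 3 settings 0 of the 9 genes were called. With the name form as covariate, and without the sex term, 2 of the 9 were called, Kcnb2 being lost. Each mouse left out in turn gave 2289 to 6614 genes and 2 to 3 of the 9. The count moved by over 1.5 times without PBS male 90 (2289), HsTX1[R14A] female 98 (3005) or 71 (3332), or HsTX1[R14A] male 88 (3121) or 81 (3263). The 9 genes were chosen on this contrast, so their calls say nothing of stability. For sex, DESeq2 called 26 genes and the filter of at least 10 counts in every mouse 1, and 0 of the 9 genes were called in any setting; the interaction called 0 genes in every setting.

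Signs of uncalled values changed as follows. For treatment, Kcns1 was -0.11 and Kcns2 -0.0070 with the name form, and with the slope Kcns1 was -0.052, Kcns2 -0.023, Kcng4 -0.00032 and Kcns3 0.020. In the more common form Kcns1 was -0.21, in the other Kcng2 was -0.20, Kcns2 -0.16, Kcns3 0.15 and Kcnv1 0.078, and without PBS male 101 Kcns3 was 0.0072. For sex, Kcnb2 was -0.0044 in the more common name form and -0.035 with the slope, Kcng2 -0.011 in PBS mice, Kcng4 -0.057 with the slope, and Kcns3 0.0052 with limma/voom, 0.011 in the more common form, 0.016 with the slope and 0.015 in PBS mice. With each mouse left out, Kcnb2 ran from -0.0088 to 0.16 and Kcns3 from -0.10 to 0.047. For the interaction, in the more common form Kcnb2 was -0.28, Kcnf1 -0.11 and Kcns3 0.21, and Kcnf1 was -0.038 with the slope; with each mouse left out, Kcnb2 ran from -0.15 to 0.25 and Kcnf1 from -0.13 to 0.31.

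With the median transcript length, 7 neighboring pairs differed in place of 3. Those added were Kcns2 over Kcng1 at -0.65, Kcng1 over Kcns1 at 0.95, Kcnb2 over Kcng4 at 0.40 and Kcns3 over Kcng2 at -1.52. Kcng4 over Kcns3 was 0.0054 and did not pass (exact test, adjusted p = 0.973). In HsTX1[R14A] mice, Kcnv1 over Kcnf1 was 0.087 and no longer passed, Kcns2 over Kcng1 was -0.56, Kcng4 over Kcns3 0.37 and Kcns3 over Kcng2 -0.018. The cause was not tested. The spread between mice limits these values, and the part of sequencing depth in it was not tested. The comparison of sexes is limited by the 3 treated females.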
